A study of Mus musculus with 14 samples.

Results

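Rab proteins are small GTPases of the Ras superfamily that act as switches of membrane traffic. In the GTP-bound state a Rab protein sits on one kind of membrane and recruits effectors such as tethers and motor proteins, and in the GDP-bound state dissociation inhibitors take it off again. Blood cells use them for antigen uptake, phagosome maturation, receptor recycling and the release of granules, and loss of mouse Rab27a, the ashen mutation, impairs the granule release of cytotoxic T cells.

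The Rab genes described here are the nearest genes of a deposited ATAC-seq peak list whose names consist of Rab, a number and at most 1 letter. Of the 19105 genes named in the list, 55 fit and were analysed, with 238 of the 92842 peaks, and 1 further gene that fits the pattern was left out by the rule. A RefSeq gene table of the same mouse assembly holds 58 such genes, all protein-coding, so that Rab15, Rab34 and Rab39b had no peak of their own. ATAC-seq maps open chromatin by the cuts of the Tn5 transposase. The list joins 14 libraries, 2 of each of 7 populations sorted by antibody staining from wild-type C57BL/6 mice of 8 to 12 weeks: MPP (multipotent), CMP (common myeloid), CLP (common lymphoid), GMP (granulocyte and macrophage), MEP (megakaryocyte and erythroid) and ProB (B cell) progenitors from bone marrow, and ProT (T cell) progenitors from thymus. It gives no value for a library or a cell type, so peaks could not be tied to a population, no population could be checked against its markers, there are no replicates and the depth is unknown. Each peak is 499 bp wide and is given to the gene with the nearest transcription start site (TSS), whether or not the peak acts on it.

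Most Rab genes had open chromatin at their start, and a few of them had many further peaks. A peak was found for 55 of the 58 genes (94.8%, exact Clopper-Pearson 95% interval 85.6 to 98.9), against 75.1% of the other 21841 coding genes of the RefSeq table. A peak within 1 kb of a TSS, called a promoter peak here, was found for 48 of 58 (82.8%, 70.6 to 91.4), against 55.4% of the other coding genes. A peak farther than 1 kb was found for 43 of 58 (74.1%), against 63.5% of the others. Exactly 1 peak was found at 15 of 58 (25.9%), against 17.4%, and 10 or more peaks at 5 of 58 (8.62%), against 9.47%, which is close to that background. The 55 Rab genes with a peak held 4.33 ± 3.87 peaks (SD over genes) with a median of 3, and the 16395 other coding genes with a peak held 4.87 ± 5.34, also with a median of 3. The intervals cover counting error only, and none of these differences was tested.

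**Figure D1:**
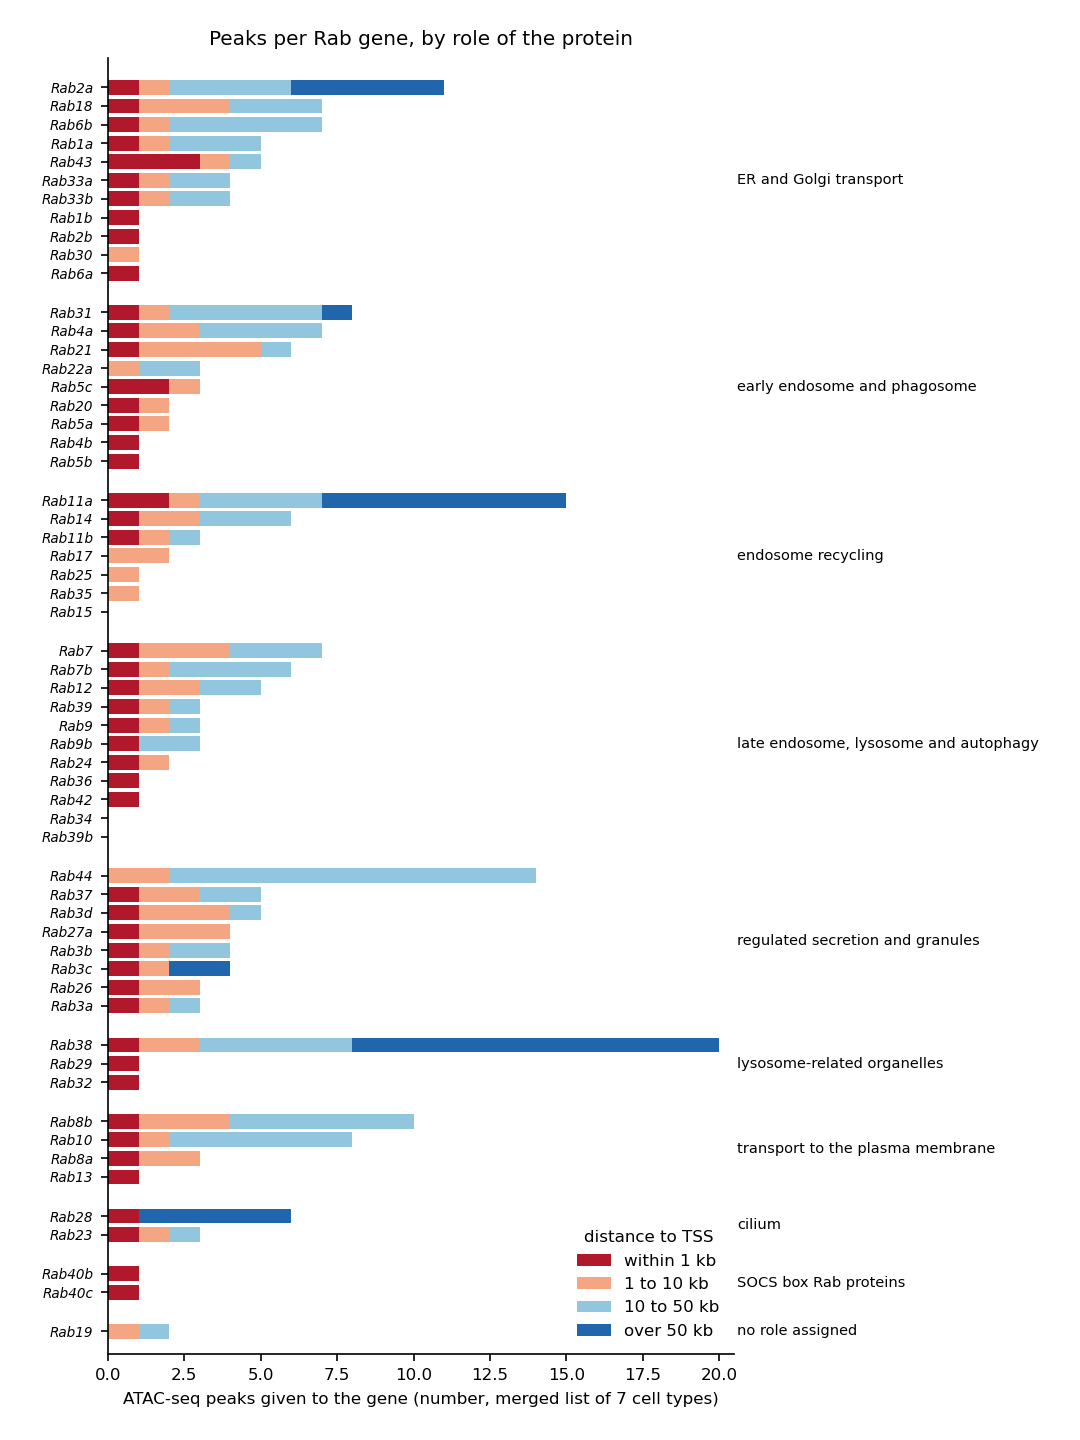
Number of peaks given to each of the 58 Rab genes (x axis), with genes grouped by the role of the protein and bars divided by the distance of the peak to the TSS. Rab38 had 20 peaks, 12 of them over 50 kb from the TSS, while 15 genes had 1 peak and Rab15, Rab34 and Rab39b none.

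The promoter peaks sat close to the start. Of the 52 promoter peaks of Rab genes, 44 (84.6%) had their centre within 250 bp of the TSS, against 75.2% of the 14953 other promoter peaks. Their centres ran from 424 bp upstream at Rab13, a GTPase of tight junctions and transport to the cell surface, to 969 bp downstream at Rab5c. At 4 genes, Rab13, Rab21, Rab33a and Rab44, every TSS used by the list lay over 1 kb inside the RefSeq gene, by 7.07 kb at Rab13. Only Rab43 (3), Rab11a (2) and Rab5c (2) had more than 1 promoter peak. Just outside the limit of 1 kb lay peaks of Rab44 (1003 bp downstream), Rab23 (1103 bp upstream), Rab4a (1220 bp downstream) and Rab30 (1278 bp downstream).

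The sequences of these starts differed in their density of CpG dinucleotides, the base pair step that is dense at the promoters of broadly used genes. RefSeq promoter windows of 300 bases, from 250 before to 50 after a start (build GRCm38.p6), were matched for 48 of the 58 Rab genes. Where a gene had several windows, the one nearest to a peak was used, for Rab and other genes alike. This choice favours windows with a peak. The windows of Rab15, Rab17, Rab21 and Rab33a belong to starts over 1 kb inside the RefSeq gene. The 42 windows with any peak within 1 kb had a median of 23 CpGs (range 6 to 43) and a median GC content of 63.0%. The 6 without one, those of Rab15, Rab17, Rab19, Rab25, Rab34 and Rab39b, had a median of 9 CpGs (range 4 to 13) and a GC content of 55.7%. The other coding genes had medians of 21 CpGs in 10754 windows with a peak and 3 CpGs in 6690 windows without. The following windows are examples that run from 4 to 43 CpGs: the first 4 have a peak and the last 3 have none. Each is written 5′ to 3′ on the strand of its gene, and capitals mark every CpG.
Rab10 (chr12:3309920-3310219, minus strand, 43 CpGs): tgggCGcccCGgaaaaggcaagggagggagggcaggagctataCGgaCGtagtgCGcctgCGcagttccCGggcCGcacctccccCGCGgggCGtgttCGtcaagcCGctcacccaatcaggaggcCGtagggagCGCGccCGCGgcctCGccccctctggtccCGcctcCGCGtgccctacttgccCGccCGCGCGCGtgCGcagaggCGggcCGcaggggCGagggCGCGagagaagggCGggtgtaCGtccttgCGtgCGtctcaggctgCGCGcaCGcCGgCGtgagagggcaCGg
Rab35 (chr5:115631737-115632036, plus strand, 43 CpGs): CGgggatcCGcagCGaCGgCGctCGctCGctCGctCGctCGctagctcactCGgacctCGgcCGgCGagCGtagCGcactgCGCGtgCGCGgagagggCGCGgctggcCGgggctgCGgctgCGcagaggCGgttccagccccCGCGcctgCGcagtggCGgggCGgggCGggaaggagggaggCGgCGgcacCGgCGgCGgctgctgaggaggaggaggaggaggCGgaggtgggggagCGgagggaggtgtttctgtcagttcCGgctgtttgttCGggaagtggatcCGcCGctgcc
Rab11a (chr9:64737707-64738006, minus strand, 16 CpGs): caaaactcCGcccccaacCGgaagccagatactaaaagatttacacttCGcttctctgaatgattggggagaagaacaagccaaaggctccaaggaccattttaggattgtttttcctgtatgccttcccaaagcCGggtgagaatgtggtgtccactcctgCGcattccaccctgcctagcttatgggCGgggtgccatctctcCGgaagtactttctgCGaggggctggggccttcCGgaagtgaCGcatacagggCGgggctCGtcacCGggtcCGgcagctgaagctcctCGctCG
Rab33a (chrX:48519035-48519334, plus strand, 7 CpGs): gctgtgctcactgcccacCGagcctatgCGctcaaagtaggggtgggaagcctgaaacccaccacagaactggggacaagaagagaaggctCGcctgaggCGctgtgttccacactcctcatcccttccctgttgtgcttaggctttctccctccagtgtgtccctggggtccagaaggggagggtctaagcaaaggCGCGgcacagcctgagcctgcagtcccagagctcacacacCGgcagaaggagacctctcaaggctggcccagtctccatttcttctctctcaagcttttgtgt
Rab25 (chr3:88548230-88548529, minus strand, 9 CpGs): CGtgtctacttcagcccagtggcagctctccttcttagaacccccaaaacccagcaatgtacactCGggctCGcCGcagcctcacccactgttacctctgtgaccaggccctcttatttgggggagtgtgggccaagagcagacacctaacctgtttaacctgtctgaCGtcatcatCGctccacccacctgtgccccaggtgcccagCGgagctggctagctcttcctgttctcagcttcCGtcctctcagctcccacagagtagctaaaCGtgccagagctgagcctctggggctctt
Rab15 (chr12:76813807-76814106, minus strand, 4 CpGs): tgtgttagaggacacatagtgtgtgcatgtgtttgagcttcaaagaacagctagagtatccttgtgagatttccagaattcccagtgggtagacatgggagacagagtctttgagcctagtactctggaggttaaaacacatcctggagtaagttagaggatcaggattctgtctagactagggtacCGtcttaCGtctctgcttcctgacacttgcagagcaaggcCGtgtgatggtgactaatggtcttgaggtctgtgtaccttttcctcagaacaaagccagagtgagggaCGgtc
Rab39b (chrX:75578182-75578481, minus strand, 10 CpGs): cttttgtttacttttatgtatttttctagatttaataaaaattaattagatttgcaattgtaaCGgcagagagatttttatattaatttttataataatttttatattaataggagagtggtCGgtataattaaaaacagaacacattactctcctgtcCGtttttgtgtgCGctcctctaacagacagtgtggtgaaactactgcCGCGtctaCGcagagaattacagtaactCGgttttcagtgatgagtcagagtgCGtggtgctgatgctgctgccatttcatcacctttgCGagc

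Rab10, which carries vesicles to the plasma membrane, and Rab35, which recycles endosomes to it, share the highest CpG count of all 48 windows. At 40 or more CpGs stood 3 of the 42 Rab windows with a peak, the third being that of Rab6b with 42, against 7.16% of the other windows with a peak. Among the windows with a peak, those of Rab42, with 6 CpGs, and of Rab33a, a Golgi GTPase, with 7 had the fewest, although the window of Rab33a lay wholly inside a peak (300 of 300 bases). With fewer than 10 CpGs there were 4 of 42 such windows (9.52%), against 16.8% of the others with a peak. Rab25 and Rab15 had 9 and 4 CpGs and no peak, whereas Rab39b had 10 CpGs at a GC content of only 35.7%, an observed to expected CpG ratio of 1.06. The window of Rab15 is not at the start of the RefSeq gene, and no window at that start was counted.

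**Figure D2:**
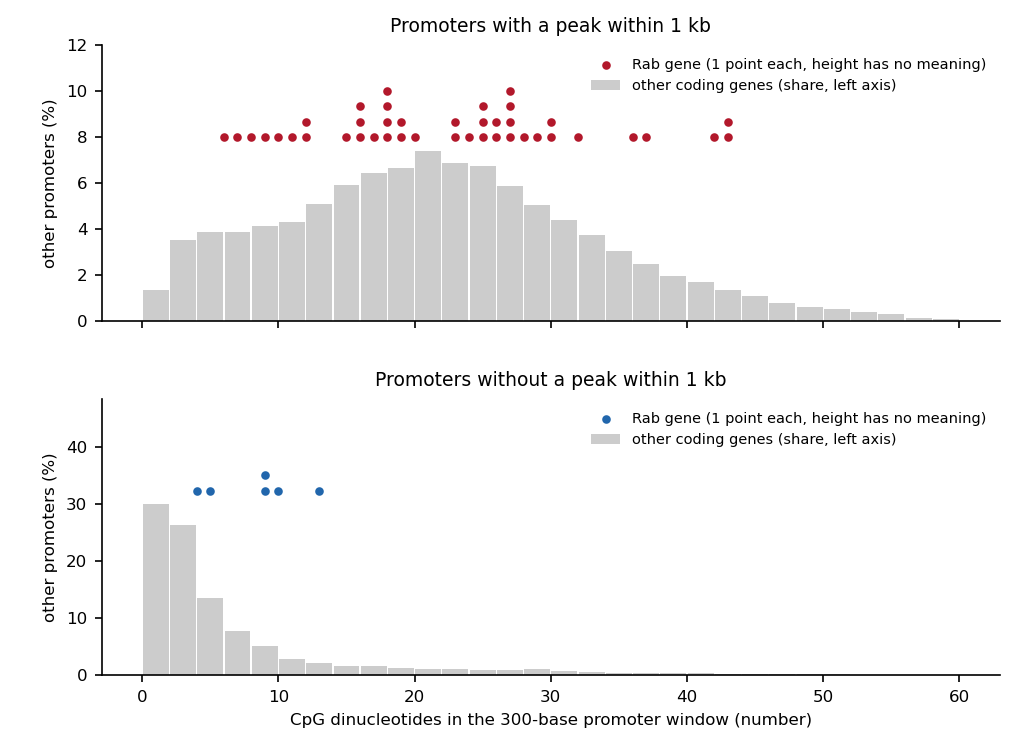
Number of CpG dinucleotides in 300-base promoter windows with (top) and without (bottom) a peak within 1 kb, as points for the 42 and 6 Rab genes and as the share of the other coding genes (grey bars, y axis in percent). Rab windows with a peak spread from 6 to 43 CpGs, and the 6 without a peak lie between 4 and 13.

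Short motifs were counted in the same windows on both strands. The GC box GGGCGG, which Sp and Klf factors bind, was found in 33 of the 42 Rab windows with a peak (78.6%), against 65.5% of the other coding windows with a peak. The CCAAT box was found in 24 of 42 (57.1%), against 38.5%. The RUNX core TGTGGT was found in 8 of 42 (19.0%), among them those of Rab11a, Rab27a and Rab31, against 12.4%. The ETS site CCGGAAG was found in 4 of 42 (9.52%), against 17.9%, and the E-box CACGTG in 5 of 42 (11.9%), against 10.3%. TATAAA was present in 3 of 42 (7.14%, against 6.76%), and TGACGTCA and CGCATGCG in 1 each (2.38%, against 3.37% and 3.86%). The GATA word AGATAA was found in 0 of 42, which by the limit of 3 counts allows a share of up to 7.14%, against 6.34%. These are matches of letters, not binding sites, and the shares were not tested.

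The start of Rab11a stood out among them. Rab11a marks the recycling endosome and returns receptors to the cell surface. Its window, printed above, holds CCGGAAG at 4 places, with first bases 233, 46, 16 and 13 bp before the start. The match at 16 bp is on the opposite strand and overlaps the one at 13 bp. As many matches were found in 5 of the 10754 other coding windows with a peak (0.0465%), a comparison chosen after its value had been seen. The other Rab windows with this site were those of Rab24 (2 matches), Rab14 and Rab8a (1 each), and Rab17, which had no promoter peak.

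Beyond the promoters, 186 further peaks were spread unevenly. At 5 genes stood 70 of the 238 peaks (29.4%), at least 10 at each, and the 15 genes that tie for the first 12 places held 138. Rab38 led with 20 peaks. It serves with Rab32 in the delivery of cargo to melanosomes and to the dense granules of platelets, and its mutation gives the chocolate coat of mice. Its peaks on chromosome 7 comprised 1 in an exon at its start (chr7:88430153-88430651), 7 in its introns and 12 between genes, from 72.9 kb upstream to 418 kb downstream of the TSS. The peaks from 72.3 to 143 kb downstream formed a group of 7 beyond the end of the gene. Rab32, the closest relative, had 1 peak, 93 bp downstream of its TSS.

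Rab11a had 15 peaks, and most lay in its neighbour. Besides its promoter peaks at the TSS (chr9:64737608-64738106) and 933 bp downstream, 3 lay upstream, the farthest at 33.7 kb, and 10 lay 34.7 to 173 kb downstream in introns of Megf11, a gene of an EGF-like domain protein. Rab44, a large GTPase that takes part in mast cell degranulation in mice, had 14. None lay within 1 kb of the listed TSS, which is not the start of the RefSeq gene but lies inside it, and 8 of the 14 lay 27.4 to 43.8 kb downstream in introns of Cpne5, a copine gene. A run of 7 of them with gaps of at most 5 kb covered 10.3 kb (chr17:29162254-29172523), the run with the most peaks at any Rab gene.

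Rab2a, which acts in traffic between the endoplasmic reticulum and the Golgi, had 11 peaks. They included the promoter peak (chr4:8535459-8535957), 5 in its introns and a group of 3 from 103 to 117 kb upstream. Rab8b, a GTPase of transport to the plasma membrane, had 10, with 1 at the promoter (chr9:66919439-66919937) and all the other 9 in its intron 1, from 3.19 to 37.1 kb downstream. Rab10 had 8, of which 6 lay in intron 1 within 12.8 kb (chr12:3283823-3296579). Rab31, an endosomal GTPase that in humans guides traffic from the Golgi to endosomes, also had 8, with 1 in an exon at its start, 6 in intron 1 and 1 in intron 2.

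The genes with 6 or 7 peaks combined a promoter peak with a few on both sides, apart from Rab28. Rab4a had 3 peaks upstream, the farthest at 22.1 kb, and 3 in its introns up to 26.9 kb. Rab6b likewise had 3 upstream, up to 21.5 kb, and 3 in its introns at 22.6, 34.8 and 37.3 kb. Rab18 had 3 upstream, the farthest at 49.4 kb, and 3 in its introns within 18.8 kb. Rab7 differed in having 4 of its 7 peaks upstream, between 2.74 and 19.1 kb, and 2 in its introns. Rab21 had 3 upstream within 13.1 kb and 2 downstream, Rab14 had 2 upstream within 13.8 kb and 3 downstream, and Rab7b had 1 upstream and 4 downstream within 23.9 kb.

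**Figure D3:**
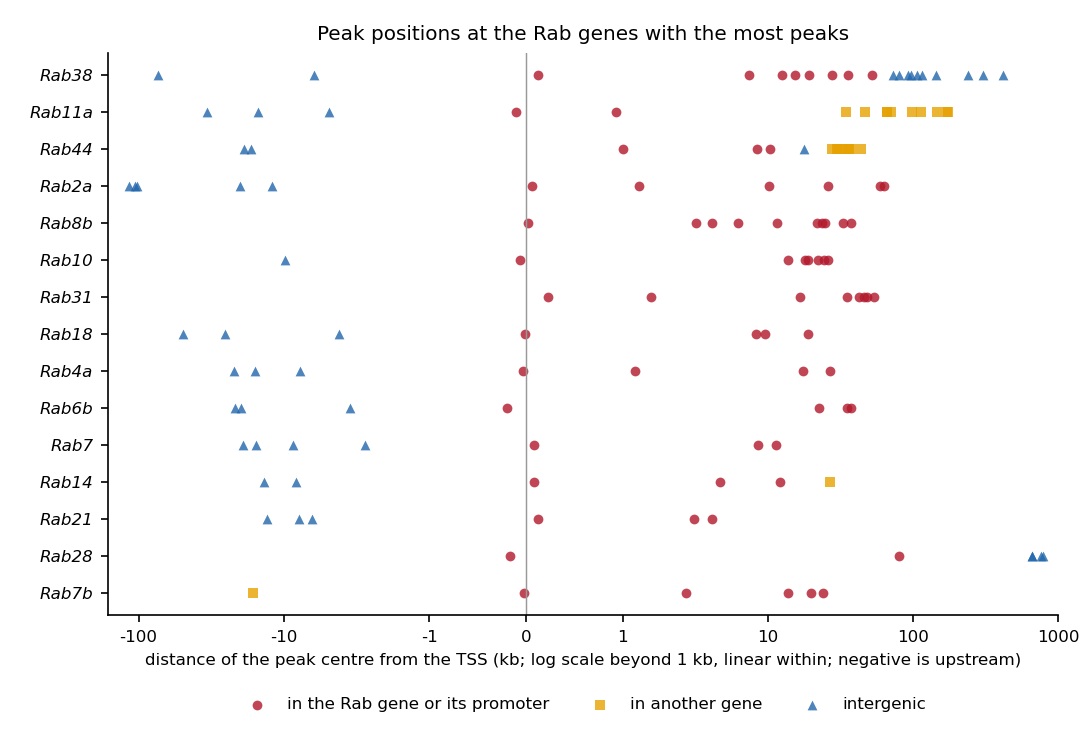
Distance of each peak from the TSS (x axis in kb, log scale beyond 1 kb and linear within it, upstream negative) at the 15 Rab genes that tie for the 12 highest counts, with symbols for peaks in the Rab gene, in another gene or between genes. Rab8b and Rab31 show all and Rab10 all but 1 of their peaks in their own gene. Rab11a (10 of 15) and Rab44 (8 of 14) show most of theirs in a neighbour. Rab38 (12 of 20) and Rab28 (4 of 6) show most of theirs between genes, mainly far downstream.

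The first intron held many of these peaks. Of 105 intron peaks given to Rab genes, 56 (53.3%, exact 95% interval 43.3 to 63.1) lay in an intron 1, against 35.1% of the 38907 other intron peaks. Rab8b (9), Rab10 (6) and Rab31 (6) held 21 of them, and without these genes the share was 35 of 83 (42.2%). Peaks of 1 gene are not independent of each other, so the interval is too narrow as a statement about genes. Introns of any number held 44.1% of the Rab peaks, against 42.0% of the others, and intergenic sequence 30.7%, against 39.3%.

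Rab peaks were nearer to a start than other peaks. The median distance was 10332 bp, against 18190 bp for the 92593 other peaks. Other peaks, here and for promoter peaks, introns and repeats, are those of all other genes. Of the 92593, 79801 were given to other coding genes of the RefSeq table. Within 1 kb lay 52 of 238 (21.8%, exact 95% interval 16.8 to 27.6), against 16.1% of the others, and over 50 kb away 33 of 238 (13.9%), against 25.7%. This interval too treats peaks of 1 gene as independent, which they are not. Peaks over 1 kb downstream made up 54.6%, against 48.7%, and peaks over 1 kb upstream 23.5%, against 35.1%. The farthest were the 4 of Rab28, a GTPase of cilia and photoreceptors, at 656 to 787 kb downstream, which left it 1 promoter peak and 1 peak in intron 6.

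Repeats held 38 of the 238 Rab peaks (16.0%), and also 16.0% of the others. LTR elements held 19 (7.98%), against 6.59%. The ORR1 elements among them lay at Rab10, Rab23, Rab39, Rab3c, Rab6b, Rab7 and Rab8b, and the MT elements at Rab14, Rab18, Rab31, Rab7 and Rab9. Rab3c, Rab6b and Rab7 each had 2 peaks in LTR elements, and those of Rab7 lay 15.5 and 19.1 kb upstream.

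By role, the 11 genes of transport between the endoplasmic reticulum and the Golgi had a median of 4 peaks and 10 of them had a promoter peak. Promoter peaks of the role groups are those given to the gene itself, which 55.4% of the other coding genes had. After Rab2a came Rab6b and Rab18 with 7 peaks each, which act in traffic within the Golgi and at lipid droplets. Rab1a, which brings vesicles from the endoplasmic reticulum to the Golgi, and Rab43 had 5, and the Golgi GTPases Rab33a and Rab33b 4 each. Rab1b, Rab2b and Rab6a had only a promoter peak, and Rab30 only a peak 1278 bp downstream.

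The 9 genes of early endosomes and phagosomes had a median of 3, and 8 of them had a promoter peak. Rab4a, which recycles receptors from early endosomes, had 7, and Rab21, which traffics integrins, had 6, of which 4 lay 1 to 10 kb from the TSS. The early endosome regulators Rab5c, Rab5a and Rab5b had 3, 2 and 1, Rab20, a GTPase of phagosomes, had 2 and Rab22a 3. In the recycling group the median was 2, and Rab11a, Rab14 and Rab11b of 7 genes had a promoter peak of their own. The share over the other coding genes was 55.4%. At Rab35 a peak 68 bp upstream of the RefSeq start was given to 1110006O24Rik. Rab14 had 6 peaks, 1 of them in the neighbour Cntrl, Rab11b 3, the epithelial genes Rab17 and Rab25 2 and 1, and Rab35 1.

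Of the 11 genes of late endosomes, lysosomes and autophagy, 9 had a promoter peak. Rab7, the main GTPase of the late endosome and the lysosome, had 7 peaks and Rab7b 6, 1 of which lay in an exon of Ctse, a cathepsin gene, 16.2 kb upstream. Rab12 had 5, Rab9, Rab9b and Rab39 had 3 each, Rab24 had 2, and Rab36 and Rab42 had 1. In the group of regulated secretion the 8 genes had 3 to 14 peaks, and 7 had a promoter peak. Their median was 4, against 3 for the other coding genes with a peak. After Rab44 came Rab37, which is found on secretory granules of mast cells, and Rab3d, a GTPase of zymogen and other secretory granules, with 5 each. Rab27a, which docks lytic granules and melanosomes, had 4: 1 promoter peak and 3 in intron 1 within 2.62 kb (chr9:73070910-73073525). Rab3a, Rab3b and Rab3c, known from synaptic vesicles, had 3, 4 and 4, and Rab26 had 3.

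Among the remaining genes, Rab8a had 3 peaks and Rab13 1. Rab23, which restrains hedgehog signalling at the cilium, had 3, and Rab29, a GTPase of the Golgi and lysosomes that recruits the kinase Lrrk2 in human cells, had 1. Rab40b and Rab40c, whose SOCS box links them to ubiquitin ligases, had only a promoter peak. Rab19 had 2, at 1.81 kb upstream and 17.1 kb downstream, of which the downstream one lay in Mkrn1.

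Close relatives often differed in the number of peaks given to them while sharing a promoter peak. In 13 pairs of relatives, grouped by name or, for Rab32 and Rab38 and for Rab22a and Rab31, by known kinship, 11 had a promoter peak at both genes. In 7 of the 13 pairs both genes had a peak and the richer one had at least 3 times the peaks of the other, and in an additional pair Rab39 had 3 peaks and Rab39b none. The 7 were Rab1a (5) and Rab1b (1), Rab2a (11) and Rab2b (1), Rab4a (7) and Rab4b (1), Rab6b (7) and Rab6a (1), Rab8b (10) and Rab8a (3), Rab11a (15) and Rab11b (3), and Rab38 (20) and Rab32 (1). Equal numbers were found in 3 pairs: Rab33a and Rab33b (4 each), Rab9 and Rab9b (3 each), and Rab40b and Rab40c (1 each). The same counts were not made for pairs of unrelated genes, so they cannot be read as a trait of relatives. The longer gene had more peaks in 10 of the 13 pairs. Counting any peak within 50 kb of the RefSeq gene start changed most gaps of the 7 pairs. Rab1a and Rab1b then had 10 each, Rab2a and Rab2b 6 and 7, and Rab4a and Rab4b 9 and 6. Rab6b and Rab6a had 7 and 8, Rab8b and Rab8a 14 and 12, and Rab11a and Rab11b 9 and 10. Only Rab38 and Rab32, with 8 and 2, kept a gap of at least 3 times. Over the 55 genes, Spearman's rho between the peaks given to a gene and its length was 0.54, against 0.37 over the 16395 other coding genes with a peak. Both are across genes, which share 1 list and are not independent replicates. As examples, Rab3c, 227 kb long, was given 4 peaks, and Rab44, 34.9 kb long, was given 14, of which 8 lay in introns of Cpne5. Inside the gene bodies Rab3c and Rab44 each held 5 peaks. The part that length plays was not tested.

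**Figure D4:**
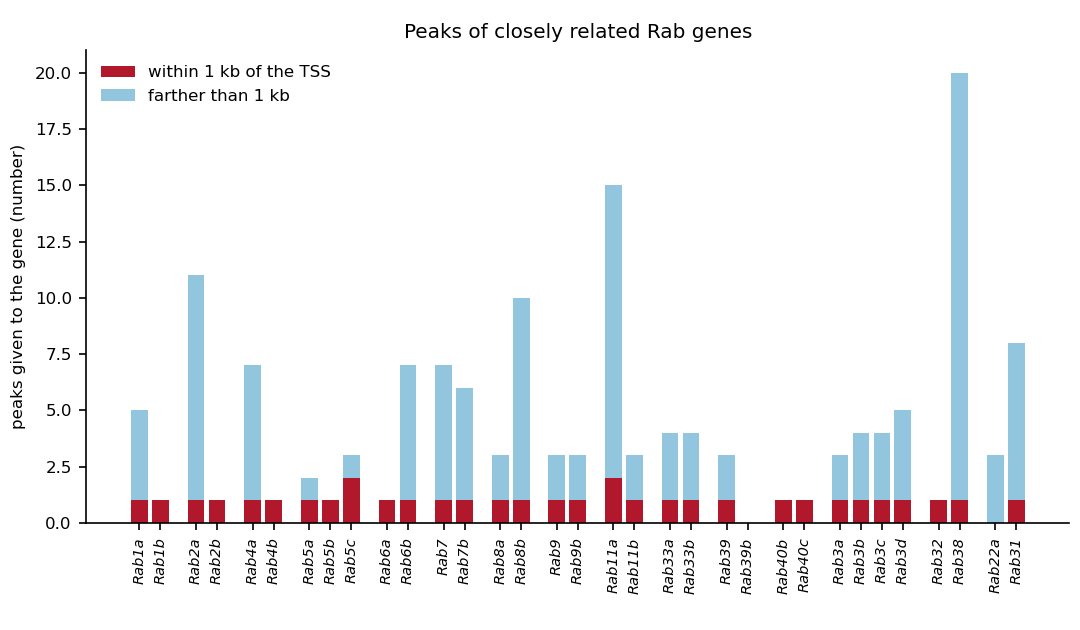
Peaks given to closely related Rab genes (y axis, number), divided into those within 1 kb of the TSS and those farther away. In the pairs of Rab2, Rab4, Rab6, Rab8 and Rab11 both relatives have a promoter peak and the difference lies mostly in the farther peaks.

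The nearest-TSS rule hid part of the open chromatin inside Rab genes. The RefSeq gene bodies of the 58 genes held 165 peaks, of which 45, in 19 genes, were given to a neighbour. The rule works the same way at all genes, and the share was not computed for the others. Rab31 held 13 peaks, 5 of them given to Txndc2, and Rab30 held 6, 5 of them given to Ddias. Rab27a held 7 with 4 given to Khdc3, and Rab37 held 7 with 4 given to Slc9a3r1 and to Cd300lf, a receptor gene of myeloid cells. In Rab43, 3 of 8 were given to Gp9, which encodes a platelet glycoprotein, and in Rab20, 4 of 5 to E230013L22Rik. Rab6a held 3 peaks, all given to Mrpl48.

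The same rule hid some promoter peaks. Of the 10 genes without a promoter peak of their own, Rab22a, Rab30, Rab35 and Rab44 had a peak within 1 kb upstream of the start of the RefSeq gene that was given to a neighbour. At Rab35, whose CpG-rich window is printed above, it lay 68 bp upstream of the gene and was given to 1110006O24Rik. At Rab22a it lay 146 bp upstream and was given to Ppp4r1l-ps, at Rab30 184 bp upstream and given to 4632427E13Rik, and at Rab44 134 bp upstream and given to Cdkn1a, a cell cycle inhibitor gene. At Rab13 and Rab33a, which had a promoter peak of their own at a TSS inside the gene, the peaks next to the RefSeq start, 92 and 153 bp upstream, were given to Rps27rt and Aifm1. With the first 4 genes, 52 of 58 genes (89.7%) had a peak at a listed TSS or at the RefSeq start. Counting any peak within 1 kb of the promoter windows' starts, the share was 42 of 48 for the Rab genes (87.5%), against 61.6% of 17444 other coding genes. Here too each gene was taken at its window nearest to a peak. The 6 without were Rab15, Rab17, Rab19, Rab25, Rab34 and Rab39b.

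Rab17 and Rab25 are known from epithelial cells, and Rab15 and Rab39b from neurons. Rab25 had a single peak 2966 bp downstream in intron 1, and Rab17 had peaks 3985 and 5543 bp upstream. The gene body of Rab15 held 1 peak, which was given to Gpx2, and the peak closest to Rab34, which positions lysosomes and acts in cilium formation, lay 2.62 kb from the gene and was given to Proca1. Rab39b on the X chromosome stood farthest apart, with its closest peak 57.6 kb away at Vbp1 (chrX:75514184-75514682).

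**Figure D5:**
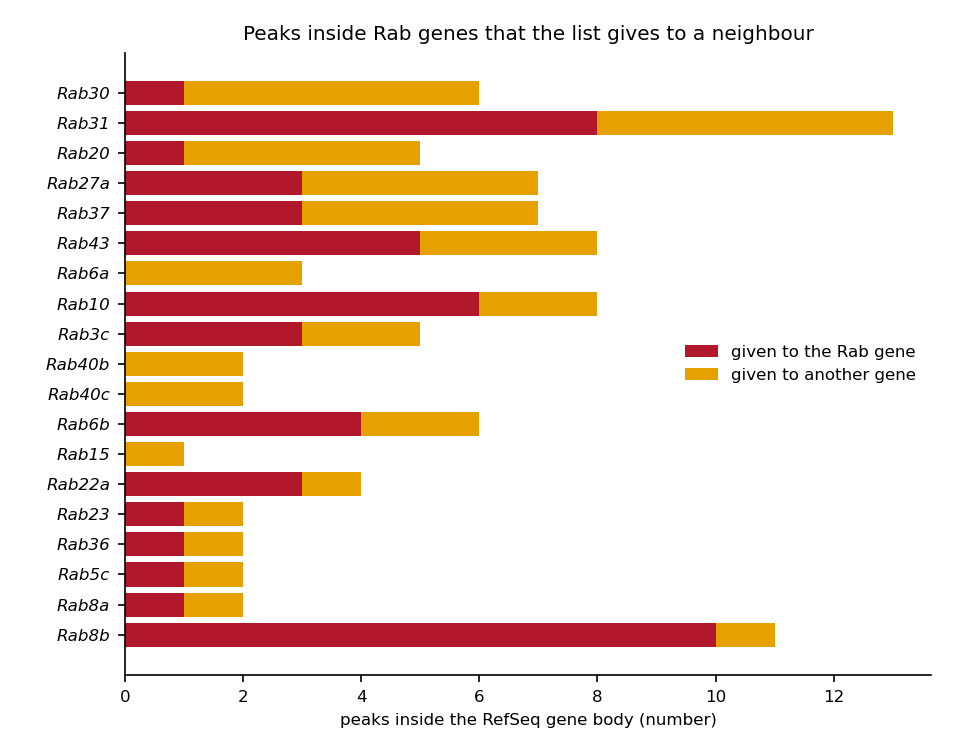
Peaks inside the RefSeq gene body (x axis, number) of the 19 Rab genes that contain a peak given to another gene, divided by the gene to which the list gives them. Rab30 and Rab20 hold 1 peak of their own each beside 5 and 4 given to neighbours.

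The proteins that load, switch and read Rab GTPases gave a comparison within the pathway, over 119 genes in 4 lists. A promoter peak was found for 34 of 35 exchange factors (97.1%), 35 of 36 GTPase-activating proteins (97.2%), 35 of 41 effectors (85.4%) and 6 of 7 genes of prenylation, escort and GDI (GDP dissociation inhibitor) proteins (85.7%), set against the 55.4% of other coding genes given above. Peaks per gene were 9 ± 9.44 for the GTPase-activating proteins (SD, median 5), 6.26 ± 5.70 for the exchange factors (median 5), 5.30 ± 4.86 for the effectors with a peak (median 4) and 3.57 ± 2.37 for the prenylation and GDI list (median 3). The Rab genes with a peak were shorter, with a median length of 23.2 kb, than the partners with a peak, at 53.8 kb.

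The partners with the most peaks were the GTPase-activating proteins Tbc1d2b with 33 and Usp6nl, which acts on Rab5, with 32. Rin3, an exchange factor of Rab5, had 28 and Dennd4a 15, while the Rab5 effector Eea1, which tethers early endosomes, had 26 and Mical3 17. Gdi2 had 8 and Rabif 5. Golga2 was the only one of the 119 without a peak. With 10 or more peaks there were 5 of the 58 Rab genes (8.62%) and 25 of the 119 partners, against 9.47% of the other coding genes. The Rab genes were thus close to that background, and the differences were not tested.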

How the data were processed

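The only file analysed here is the annotated peak list of all 14 libraries. Per the file headers, the authors ran annotatePeaks.pl with the mm10 genome. HOMER 4.10.2 is named, per the submitters' processing notes. Aligner, peak caller, thresholds and the way libraries were merged: not given in the sources used here. The deposited values used were positions, annotation classes and signed distances to the nearest TSS in bp; the deposited peak score, 0 throughout, was left aside. Peak centres, counts and shares were computed with Python 3.11.15 and pandas 2.3.3, and exact intervals with scipy 1.17.1. Counting and motif search were tested on simulated data. Genes were matched by Entrez ID to RefSeq GRCm38.p6 (19072 of 19105), the assembly of mm10, and promoter sequences were taken from RefSeq. Named were the 12 Rab genes with the most peaks with ties, all with 1 peak, with no promoter peak or with none, examples by role, and the 2 leading partners per list. Members and lists were chosen with earlier results of these data known, and the groups of relatives, the motifs and the alternatives on neighbouring peaks after the files had been seen. No tests between cell types, and no significance tests, were made. An item of the partner lists is not reported here.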

Additional observations from a re-analysis of the deposited data

How the results depend on the processing

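Peaks per Rab gene (4.33 over 55 genes) fell to 3.73 within 50 kb, 2.09 within 10 kb and 2.98 inside the RefSeq gene bodies, and came to 9.05 when any peak within 50 kb of the gene start counted, an alternative added after seeing the data. For other coding genes the values within 50 kb and 10 kb were 3.70 and 1.89. Rab peaks in introns made up 36.1% when peaks in repeats were set apart, against 33.5% of other peaks. Promoter limits of 500 bp and 2 kb, leaving out Rab38 and keeping genes without a peak moved the values by less than their SD or 95% interval. Leaving out a library was not possible because the list holds no values per library. No paired analysis was possible because the columns carry no replicate numbers. Without depth, the absence of a peak cannot be given a detection limit.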
